A study of Mus musculus with 6 samples.

Results

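MHC class II genes were examined in primary mouse calvarial osteoblasts, as 10 genes chosen by name: the peptide-binding chains H2-Aa, H2-Ab1 and H2-Eb1, the invariant chain Cd74, the peptide-loading chains H2-DMa, H2-DMb1, H2-DMb2, H2-Oa and H2-Ob, and the transactivator Ciita. Probes were assigned to them through the RefSeq accession in the scanner output, which gave 12 of the 39429 probes on the array, and 10 of the 20659 named genes. H2-Ab1 and H2-Ob each had 2 probes and the other genes had 1.

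The osteoblasts were prepared from the calvariae of newborn CD1 mice, 2 to 5 days old. Undifferentiated osteoblasts were grown to confluence, differentiated osteoblasts were then kept for 30 days in medium with ascorbic acid and β-glycerol phosphate, and the third group was kept for 30 days in that medium with 100 nM cabozantinib (XL184), an inhibitor of the receptor tyrosine kinases MET and VEGFR2. The 30 days are those of the labels and the array methods, while the results text of the study names an earlier day of culture for these arrays. Each condition had 2 single-color arrays hybridized with Cy3-labeled RNA. The labels do not say whether the 2 arrays came from separate cultures or pools of mice, so the p values measure the spread between these arrays, which may be technical. The 2 replicate log2 signals differed with an SD over probes of 0.87 for the undifferentiated, 0.73 for the differentiated and 0.64 for the cabozantinib-treated osteoblasts. Between 58.8% and 72.9% of the spots of an array were called well above background in the scan, with the lowest shares on the 2 cabozantinib arrays. The 4 arrays without cabozantinib had 1 scan time and the 2 cabozantinib arrays another, so the scan and cabozantinib cannot be told apart.

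MHC class II molecules present peptides from endosomes to CD4+ T cells. Their α and β chains assemble with the invariant chain, H2-DM then exchanges the last invariant chain fragment for a peptide, and H2-DO restrains H2-DM. The genes are expressed mainly by dendritic cells, B cells and macrophages, and other cells, mesenchymal cells among them, turn them on under interferon-γ through Ciita, which has no DNA-binding domain and acts on promoters through factors bound to an X box and a Y box. Bone cultures from calvariae can carry cells of the macrophage and osteoclast lineage beside the osteoblasts.

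The H2 genes lie together on chromosome 17 in the order H2-Oa, H2-DMa, H2-DMb2, H2-DMb1, H2-Ob, H2-Ab1, H2-Aa and H2-Eb1, with other genes between some of them (RefSeq, GRCm38.p6). Ciita is on chromosome 16. RefSeq promoters of 300 bases, from 250 before to 50 after the annotated start, were at hand for 7 of the 10 genes, with 2 starts for H2-DMa. In 5 of the 7 genes the letters AAC of an X box preceded the letters GATTGG of a Y box by 25 to 35 bases. The stretches are shown because this pair of boxes is the shared control element of the family. They are written 5′ to 3′ in the direction of the gene, with the AAC and GATTGG letters in capitals.
H2-Aa (GRCm38.p6 chr17:34287861-34287910, minus strand): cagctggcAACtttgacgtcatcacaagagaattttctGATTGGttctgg
H2-Eb1 (GRCm38.p6 chr17:34305770-34305818, plus strand): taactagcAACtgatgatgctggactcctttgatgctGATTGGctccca
H2-DMb1 (GRCm38.p6 chr17:34153091-34153140, plus strand): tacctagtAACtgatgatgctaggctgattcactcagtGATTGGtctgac
H2-DMb2 (GRCm38.p6 chr17:34145120-34145169, plus strand): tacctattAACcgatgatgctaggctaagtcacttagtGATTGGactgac
H2-Oa (GRCm38.p6 chr17:34092297-34092346, plus strand): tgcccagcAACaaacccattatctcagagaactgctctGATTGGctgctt

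The letters between the boxes numbered 26 in H2-Eb1 and 27 in the other 4 genes. The Y box began 44 bases before the annotated start in H2-Oa, 49 in H2-Aa, 60 in H2-Eb1, 62 in H2-DMb1 and 91 in H2-DMb2. Over all 32851 promoters in the table, 2.19% held AAC and GATTGG with 25 to 35 bases between them on either strand, and 16.1% held GATTGG on either strand. GATTGG was present in 7 of the 8 member promoters searched, H2-Ob and the second start of H2-DMa included, without an AAC at that distance in these 2. The windows and the distance were chosen after the sequences were seen, and a match of letters is a description of these windows.

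**Figure D1:**
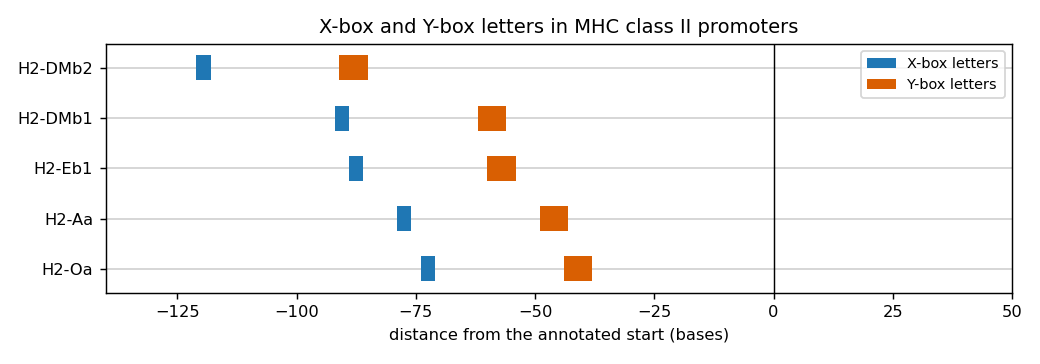
Positions of the X-box letters (AAC, blue) and the Y-box letters (GATTGG, orange) in 5 MHC class II promoters, in bases from the annotated start at 0 (horizontal axis). The pair lies upstream of the start in all 5 genes, nearest in H2-Oa and farthest in H2-DMb2, with 26 or 27 bases between the boxes.

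Levels are given per array as the log2 signal relative to the 75th percentile of that array, so that 0 is a probe as bright as the 75th percentile. These levels serve to compare arrays at the same probe, since different probes bind with different strength. On all 6 arrays, 8 probes from 7 genes exceeded the background clearly by the call of the scanner software (well above background). The probes of H2-DMb2 and Ciita were well above background on none, and that of H2-Aa on 1 array. Of the 12 probes, 9 probes of 7 genes were well above background on at least 2 arrays and entered the limma fit over 27229 probes.

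**Figure D2:**
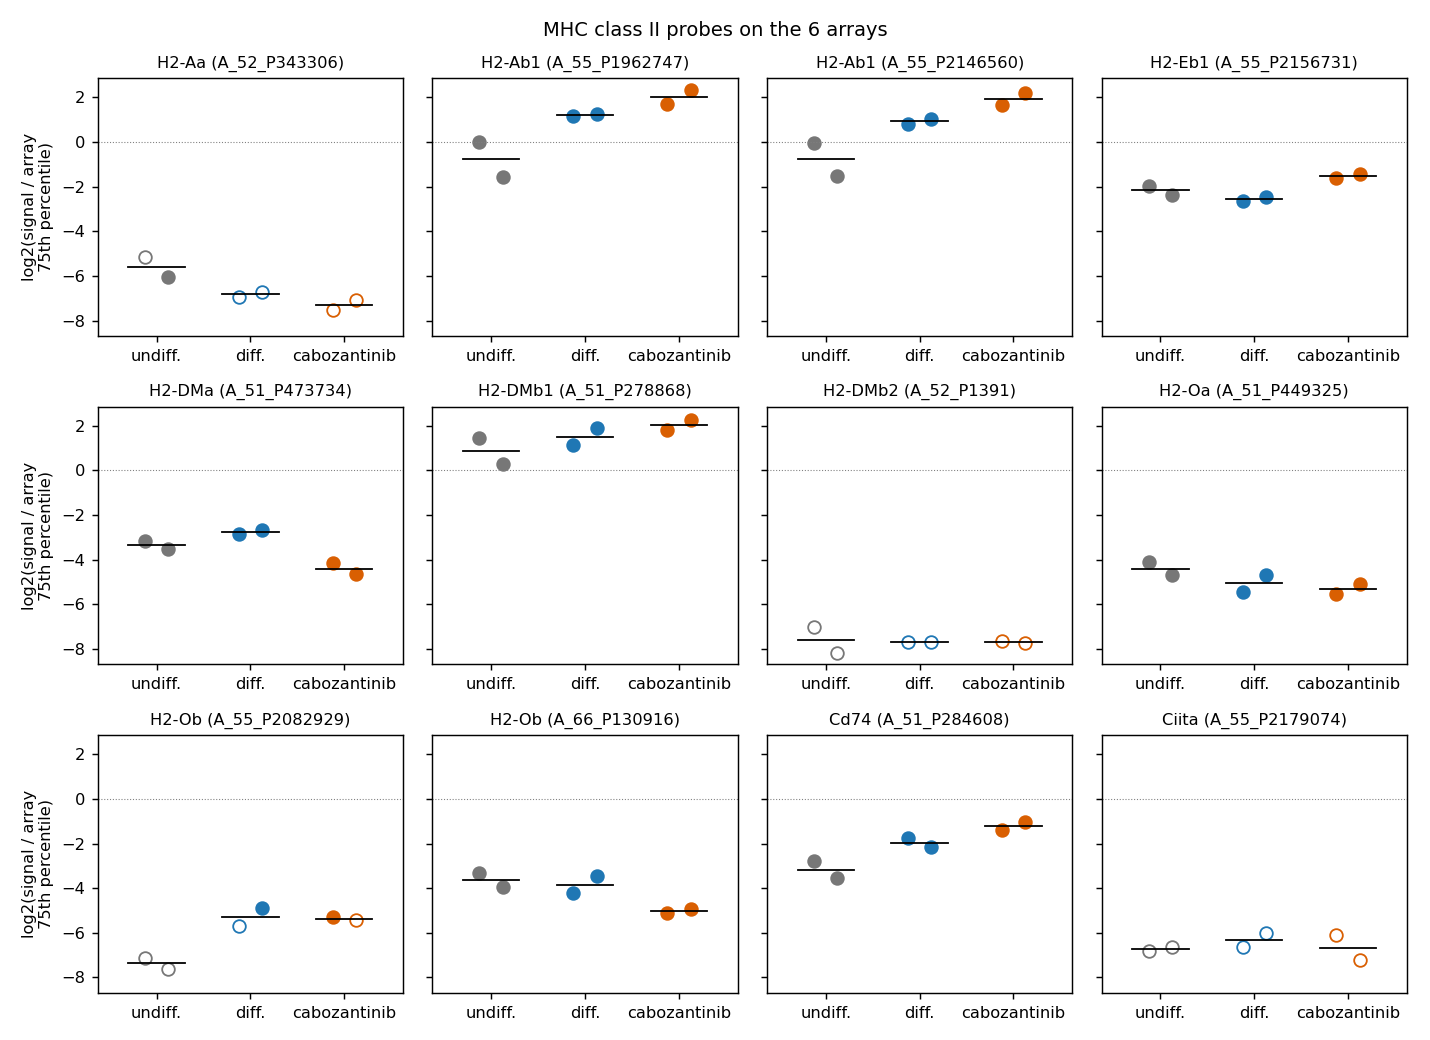
Log2 signal relative to the 75th percentile of the array (vertical axis) for the 12 MHC class II probes on the 2 undifferentiated (gray), 2 differentiated (blue) and 2 cabozantinib (orange) arrays. Filled points were well above background, open points were not, and lines are group means. H2-Ab1 and Cd74 step up from group to group without overlap, H2-DMa is lowest with cabozantinib, and H2-DMb2 and Ciita have open points only.

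H2-Ab1, the β chain of the I-A molecule, was the member with the widest range over the conditions. Its probe A_55_P1962747 read -0.01 and -1.55 in undifferentiated, 1.15 and 1.24 in differentiated and 1.70 and 2.32 in cabozantinib-treated osteoblasts, and these groups did not overlap. The other probe, A_55_P2146560, read -0.05 and -1.51, then 0.82 and 1.05, then 1.64 and 2.19, in the same order of groups. In signal units, the first probe read 675 and 674 on the undifferentiated, 2686 and 1692 on the differentiated and 4565 and 5466 on the cabozantinib arrays. The equal signals of the undifferentiated arrays became far apart after scaling, since their 75th percentiles were 678 and 1975.

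H2-Ab1 rose in cabozantinib-treated against undifferentiated osteoblasts by 2.79 ± 0.60 on the log2 scale (SE, n = 2 arrays per group), or 6.91-fold, with an adjusted p of 0.0203 in limma. The second probe gave 2.69 ± 0.59, or 6.45-fold, with an adjusted p of 0.0215 in limma. Over the 16 alternative settings, each array left out among them, the log2 change ran from 1.84 to 3.74 for the first probe. For the second probe it ran from 1.77 to 3.61. Both calls were lost with quantile normalization, at adjusted p of 0.0627 and 0.0629 in limma, although the log2 changes were 2.84 and 2.74. With the authors' values the changes were 2.84 and 2.74 and both calls were lost as well (limma adjusted p = 0.0824 and 0.0826). Both were also lost without cabozantinib replicate 2, at log2 changes of 2.11 for each probe and limma adjusted p of 0.273 and 0.274. Between differentiated and undifferentiated osteoblasts the log2 differences of 1.97 ± 0.60 and 1.71 ± 0.59 missed the threshold (limma adjusted p = 0.0770 and 0.119). Undifferentiated replicate 1 bears on this, since without it the differences were 2.92 and 2.63 (limma adjusted p = 0.0189 and 0.0190), and without undifferentiated replicate 2 they were 1.02 and 0.79. Between cabozantinib-treated and control differentiated osteoblasts the log2 differences were 0.82 ± 0.60 and 0.98 ± 0.59 (limma adjusted p = 0.511 and 0.389), with 95% intervals from -0.54 to 2.17 and from -0.36 to 2.31. In the order undifferentiated, differentiated, cabozantinib-treated, neither pair of neighbors differed beyond the test, and the ends of the order did.

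H2-Eb1, the β chain of the I-E molecule, followed another order. It read -1.96 and -2.36 in undifferentiated, -2.64 and -2.46 in differentiated and -1.60 and -1.44 in cabozantinib-treated osteoblasts, so that the differentiated arrays were lowest and the cabozantinib arrays highest, without overlap. The cabozantinib arrays lay 1.02 ± 0.49 above the control differentiated arrays on the log2 scale, or 2.03-fold (limma adjusted p = 0.253, 95% interval -0.08 to 2.13). When only those 4 arrays were fitted, the adjusted p in limma was 0.0422, in a setting where far more of all probes passed than in the main fit. The differentiated arrays lay -0.39 ± 0.49 from the undifferentiated arrays (limma adjusted p = 0.821), and the cabozantinib arrays 0.64 ± 0.49 from them (limma adjusted p = 0.420).

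H2-Aa, the α chain that pairs with H2-Ab1, read -5.15 and -6.05 in undifferentiated, -6.95 and -6.71 in differentiated and -7.51 and -7.09 in cabozantinib-treated osteoblasts. It was well above background on undifferentiated replicate 2 only, so it was not tested and no fold is given.

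Cd74, the invariant chain that fills the peptide groove until H2-DM acts, changed in the same order as H2-Ab1. It read -2.80 and -3.52 in undifferentiated, -1.77 and -2.17 in differentiated and -1.41 and -1.03 in cabozantinib-treated osteoblasts, without overlap. Cd74 rose by 1.95 ± 0.51 on the log2 scale, or 3.85-fold, in cabozantinib-treated against undifferentiated osteoblasts (limma adjusted p = 0.0383). Without cabozantinib replicate 1 or 2 this call was lost (limma adjusted p = 0.151 and 0.509, at 2.42 and 1.48). It was lost with the normexp background correction too, at 1.42 (limma adjusted p = 0.430), and with the authors' values, at 2.25 (limma adjusted p = 0.0590). The log2 difference was 1.19 ± 0.51 between differentiated and undifferentiated osteoblasts (limma adjusted p = 0.220) and 0.75 ± 0.51 between cabozantinib-treated and control differentiated osteoblasts (limma adjusted p = 0.462, 95% interval -0.40 to 1.91).

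The 2 chains of H2-DM did not follow each other. H2-DMa, the α chain, read -3.17 and -3.53 in undifferentiated, -2.83 and -2.69 in differentiated and -4.16 and -4.65 in cabozantinib-treated osteoblasts, with no overlap and the cabozantinib arrays lowest. Its log2 difference between cabozantinib-treated and control differentiated osteoblasts was -1.65 ± 0.49, a 3.13-fold lower signal (limma unadjusted p = 0.0080, adjusted p = 0.0852, 95% interval -2.75 to -0.54). This passed the threshold without the replicate block (limma adjusted p = 0.0333) and when only those 4 arrays were fitted (limma adjusted p = 0.0275). Without the block 12.4% of all probes passed as well, and with only those 4 arrays still more did, beside 1 probe in the main fit. With quantile normalization the difference was -1.08 (limma adjusted p = 0.221). Against the undifferentiated arrays, the log2 difference of H2-DMa was 0.59 ± 0.49 in differentiated and -1.06 ± 0.49 in cabozantinib-treated osteoblasts (limma adjusted p = 0.638 and 0.172). With quantile normalization the latter was -0.35 (limma adjusted p = 0.555).

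H2-DMb1, the β chain of H2-DM, read 1.45 and 0.30 in undifferentiated, 1.13 and 1.89 in differentiated and 1.82 and 2.27 in cabozantinib-treated osteoblasts. The differentiated arrays overlapped both other groups, and no comparison passed the test, with log2 differences of 0.63 ± 0.59, 0.53 ± 0.59 and 1.17 ± 0.59 (limma adjusted p = 0.691, 0.715 and 0.202). H2-DMb2, a second β chain gene, read between -8.17 and -7.00 on the 6 arrays and was not well above background on any.

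H2-Oa and H2-Ob encode the chains of H2-DO, a molecule known from B cells and thymic epithelium. H2-Oa read -4.10 and -4.70 in undifferentiated, -5.43 and -4.68 in differentiated and -5.53 and -5.09 in cabozantinib-treated osteoblasts, and passed no test (limma adjusted p from 0.273 to 0.886). The 2 probes of H2-Ob disagreed. A_66_P130916, well above background on all 6 arrays, read -3.31 and -3.93, then -4.21 and -3.47, then -5.11 and -4.95, so that the cabozantinib arrays were lowest. Its log2 difference was -1.19 ± 0.53 against the control differentiated arrays (limma adjusted p = 0.214, and 0.0454 when only those 4 arrays were fitted). Far more of all probes passed with only those 4 arrays than in the main fit. Against the undifferentiated arrays the log2 difference of this probe was -1.41 ± 0.53 (limma adjusted p = 0.102, and 0.0455 without the replicate block, where 24.4% of all probes passed). With quantile normalization these differences were -0.46 and -0.63 (limma adjusted p = 0.584 and 0.342).

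The other H2-Ob probe, A_55_P2082929, read -7.12 and -7.62 in undifferentiated, -5.71 and -4.88 in differentiated and -5.28 and -5.44 in cabozantinib-treated osteoblasts. It was well above background on 1 differentiated and 1 cabozantinib array. It was well above background on neither undifferentiated array and entered the fit only through the groups where it is high, so its comparisons with undifferentiated osteoblasts are not used as tests. With the normexp background correction its log2 differences from them were 0.23 in differentiated and -0.11 in cabozantinib-treated osteoblasts. No direction for H2-Ob is given from probes that disagree.

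Ciita read -6.81 and -6.62 in undifferentiated, -6.63 and -6.02 in differentiated and -6.10 and -7.24 in cabozantinib-treated osteoblasts, not well above background on any array. It therefore has neither a fold nor a test. Its level may lie anywhere under the detection limit of these arrays.

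**Figure D3:**
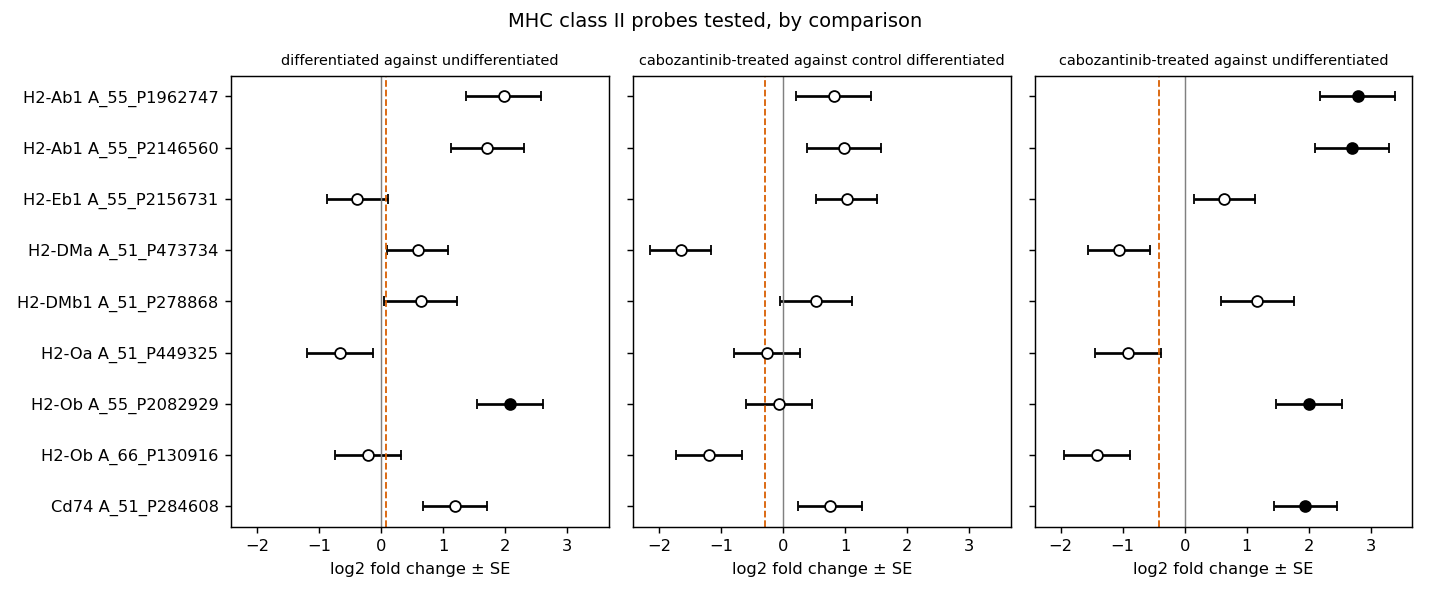
Log2 fold change ± SE from limma (horizontal axis) of the 9 MHC class II probes tested, for each of 3 comparisons that share arrays. Filled points have an adjusted p under 0.05 and dashed lines mark the median of all 27229 probes. H2-Ab1 and Cd74 are filled in the comparison of cabozantinib-treated with undifferentiated osteoblasts. The dim H2-Ob probe is filled in both comparisons with undifferentiated osteoblasts, which are not used as tests of it. No point is filled between cabozantinib-treated and control differentiated osteoblasts.

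The family was counted over the 8 member probes well above background on all 6 arrays, which leaves out the dim H2-Ob probe. In differentiated against undifferentiated osteoblasts 0 of 8 passed an adjusted p of 0.05 in limma, beside 9.69% of all probes tested and 8.55% of the 20291 probes well above background on all 6 arrays. An unadjusted p under 0.05 was reached by 3 of the 8, beside 21% of all probes and 4075 of the 20291 probes well above background on all 6 arrays. In cabozantinib-treated against undifferentiated osteoblasts 3 of 8 passed, the 2 H2-Ab1 probes and Cd74, all of them higher, beside 13.5% of all probes in both directions, 4.3% in the higher one and 7.67% of the probes above background on all arrays. Between cabozantinib-treated and control differentiated osteoblasts 0 of 8 passed in limma, beside 0.00367% of all probes, which is 1 probe. That comparison lay close to the threshold, with 1308 probes at an adjusted p under 0.06 and 6338 at an unadjusted p under 0.05, or 23.3% of those tested. Of the 20291 probes well above background on all 6 arrays, 2675 had an unadjusted p under 0.05 there. H2-DMa and the H2-Ob probe A_66_P130916 were the 2 members with an unadjusted p under 0.05 there, and by the methods' paired t-test 1 member, H2-Eb1, had a p under 0.05 with a 2-fold change, beside 9.57% of all probes, and 0 passed after adjustment.

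The comparisons share arrays, and their medians are given side by side. The 8 member probes had a median log2 difference of 0.61, 0.64 and 0.90 in the order differentiated against undifferentiated, cabozantinib-treated against control differentiated, and cabozantinib-treated against undifferentiated. H2-Ab1 entered each of these medians with 2 probes of the same transcript, so they are medians over probes and not over genes. The medians over the 20291 probes well above background on all arrays were 0.08, -0.19 and -0.24, and over all probes tested 0.08, -0.29 and -0.42. Set against the medians of all probes tested, H2-Ab1 (A_55_P1962747) lay 1.90, 1.11 and 3.21 higher, Cd74 1.12, 1.05 and 2.37 higher, and H2-DMa 0.51 higher, then -1.36 and -0.64. Groups did not overlap for 5, 6 and 8 of the 8 member probes, beside 46.6%, 52.9% and 59.7% of the probes well above background on all arrays and 45.7%, 58.4% and 64.3% of all probes.

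The genes that bind the X and Y boxes were measured in the same arrays. All 7 genes of this list (Rfx5, Rfxap and Rfxank of the RFX complex, Nfya, Nfyb and Nfyc of NF-Y, and Creb1) were tested. None passed in differentiated against undifferentiated or in cabozantinib-treated against control differentiated osteoblasts, beside 10.3% and 0.0062% of all named genes. Shares of all named genes, here and below, are over the 16134 named genes with a tested probe, each at its brightest tested probe. Rfxank, the ankyrin-repeat subunit of RFX, fell in cabozantinib-treated against undifferentiated osteoblasts by 1.82 ± 0.49 on the log2 scale (limma adjusted p = 0.0407). It was well above background on 5 of the 6 arrays, not on cabozantinib replicate 2. It read -3.36 and -3.75 in undifferentiated, -4.29 and -4.10 in differentiated and -5.24 and -5.51 in cabozantinib-treated osteoblasts, each group below the one before it. The other 6 genes did not pass, beside 12.4% of all named genes that did. With quantile normalization, normexp or the authors' values 0 of the 7 passed, and the change of Rfxank was -1.01, -1.12 and -1.01.

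Of 12 genes from interferon-γ to Ciita, 10 were tested, and 1 of them, Irf8, rose in differentiated against undifferentiated osteoblasts with signal above background in both groups, beside 10.3% of all named genes at their brightest probe. Irf8, a transcription factor of myeloid cells, read -1.56 and -1.14 in undifferentiated, 1.84 and 1.62 in differentiated and 1.87 and 1.71 in cabozantinib-treated osteoblasts. It rose by 3.08 ± 0.49 with differentiation (limma adjusted p = 0.0048) and stood 3.14 ± 0.49 above the undifferentiated arrays with cabozantinib (limma adjusted p = 0.0061). Irf4, which acts in myeloid and B cells, read -6.68 and -8.53 in undifferentiated, -3.60 and -4.66 in differentiated and -3.61 and -3.28 in cabozantinib-treated osteoblasts. It was well above background on neither undifferentiated array and entered the fit only through the other 4, so it is not counted among the genes that rose here. With normexp its log2 differences were 0.54 and 0.80 and both calls were lost. The receptor and kinase genes Ifngr1, Ifngr2, Jak1 and Jak2 and the transcription factor gene Irf1, which act between interferon-γ and Ciita, did not pass in any comparison. Ifng itself was well above background on 1 undifferentiated and 1 cabozantinib array and on neither differentiated array, so no difference is given. It read -6.02 and -6.31 in undifferentiated, -6.72 and -6.63 in differentiated and -5.46 and -5.41 in cabozantinib-treated osteoblasts.

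Among 13 genes for endosomal proteolysis and class II turnover, all tested, 11 lay higher and 2 lower in differentiated against undifferentiated osteoblasts. Of these, 4 passed as higher and 0 as lower, beside 10.3% of all named genes. Ifi30, 1 of the 2 lower genes, read 0.67 and 0.06 in undifferentiated and -1.72 and -0.80 in differentiated osteoblasts. Cd83, which protects class II molecules from degradation, rose by 6.48 ± 0.49 (limma adjusted p = 0.00027). Marchf1, the ubiquitin ligase that sends class II molecules to lysosomes, rose by 3.84 ± 0.48 (limma adjusted p = 0.0017). Ctss, the protease that trims the invariant chain, rose by 2.78 ± 0.50, and Lgmn, an asparaginyl endopeptidase, by 2.26 ± 0.50 (limma adjusted p = 0.0079 and 0.019). Cd83 read -3.95 and -3.89 in undifferentiated, 2.68 and 2.45 in differentiated and 2.44 and 2.70 in cabozantinib-treated osteoblasts. Against undifferentiated osteoblasts, 5 genes rose with cabozantinib, these 4 and Ctsh, beside 12.4% of all named genes. Against control differentiated osteoblasts 0 of 13 passed, with a median log2 difference of -0.08.

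Of 7 co-stimulatory and checkpoint ligands, 6 were tested, and 3 rose with differentiation, beside 10.3% of all named genes. They were Cd86, which engages CD28 on T cells, by 3.07 ± 0.53, Icosl, the ligand of ICOS, by 2.45 ± 0.52, and Cd274, which encodes PD-L1, by 3.09 ± 0.69 (limma adjusted p = 0.0066, 0.017 and 0.021). Cd86 and Icosl also rose in cabozantinib-treated against undifferentiated osteoblasts, by 2.59 ± 0.53 and 1.83 ± 0.52 (limma adjusted p = 0.017 and 0.048), beside 12.4% of all named genes. With quantile normalization or the authors' values the counts were 2 and 1, without Cd274 and, with cabozantinib, without Icosl, and with normexp they were 1 and 0. Between cabozantinib-treated and control differentiated osteoblasts all 6 lay lower, with a median of -0.55, beside 67.9% of all probes lower, and 0 passed. With quantile normalization or the authors' values 5 of the 6 lay lower. Their summed signal, as a multiple of the 75th percentile, was 0.83 and 0.70 in undifferentiated, 3.59 and 4.10 in differentiated and 2.08 and 2.49 in cabozantinib-treated osteoblasts. The summed peptide-binding chains, most of whose signal is that of the H2-Ab1 probe, read 1.28 and 0.55, then 2.39 and 2.55, then 3.58 and 5.38.

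The MHC class I pathway, which presents peptides from the cytosol in most cells, had 17 of 18 genes tested, of which 2 passed with differentiation, beside 10.3% of all named genes, and 1 in cabozantinib-treated against undifferentiated osteoblasts, beside 12.4%. H2-K1, a classical class I heavy chain, rose with differentiation by 1.89 ± 0.49 (limma adjusted p = 0.040), a call lost with quantile normalization, normexp and the authors' values, and H2-M3, which presents N-formylated peptides, by 3.24 ± 0.53 (limma adjusted p = 0.0052). H2-M3 also rose in cabozantinib-treated against undifferentiated osteoblasts, by 2.31 ± 0.53 (limma adjusted p = 0.024), a call lost with the authors' values. H2-K1 and other class I heavy chains are near copies of each other, and their probes may share signal. Nlrc5, the class I counterpart of Ciita, was well above background on all 6 arrays and passed no test, at 2.33 and 1.26 in undifferentiated, 2.38 and 2.51 in differentiated and 1.52 and 2.06 in cabozantinib-treated osteoblasts.

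The identity of the cells was checked on markers. Bglap2, an osteocalcin gene, rose with differentiation by 5.06 ± 0.50, and Ibsp, Dmp1 and Phex, genes of mineralizing osteoblasts and osteocytes, by 2.20 ± 0.51, 3.99 ± 0.59 and 6.37 ± 0.51. Col1a1, the brightest probe of the osteoblast list, was bright on all 6 arrays, from 6.57 to 8.11. Runx2 and Sp7, the defining transcription factors, were dim, well above background on 3 and 4 of the 6 arrays. In cabozantinib-treated against undifferentiated osteoblasts, Bglap2, Ibsp, Dmp1 and Phex rose as well, by 4.96 ± 0.50, 3.68 ± 0.51, 3.46 ± 0.59 and 5.16 ± 0.51. Of the 9 osteoblast genes tested, 4 passed as higher and 1 as lower with differentiation, beside 10.3% of all named genes. In cabozantinib-treated against undifferentiated osteoblasts 4 passed as higher and 2 as lower, beside 12.4%. The lower ones were Spp1, at log2 differences of -3.67 ± 0.92 and -3.37 ± 0.92 (limma adjusted p = 0.035 and 0.043), and, with cabozantinib, Sp7. With quantile normalization the differences of Spp1 were -3.82 and -3.41 (limma adjusted p = 0.150 and 0.185), and 0 of the list passed as lower there, with the authors' values or with no replicate block.

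Macrophage markers were read on the same arrays. Of 14 such markers on the array 12 were tested, and 7 rose with differentiation, beside 10.3% of all named genes, Adgre1 (F4/80) by 4.03 ± 0.49, Csf1r, the receptor of M-CSF, by 2.83 ± 0.63, Mrc1 by 5.30 ± 0.53 and C1qc by 7.18 ± 0.56 among them. Their summed signal was 52.1 and 31.9 times the 75th percentile in undifferentiated, 399 and 512 times in differentiated and 366 and 421 times in cabozantinib-treated osteoblasts, with the Csf1r probe the brightest. Cd163 and C1qa were not well above background on any array. Against undifferentiated osteoblasts 8 of 12 rose with cabozantinib, these 7 and C1qb, beside 12.4% of all named genes. With normexp or the authors' values 6 of 12 did, C1qb not among them, and with quantile normalization 7. Against control differentiated osteoblasts 0 of 12 passed, with 5 higher, 7 lower and a median of -0.27, beside 0.0062% of all named genes. The part of these cells in the class II signal was not tested, and in bulk RNA fewer cells of a type and less RNA per cell cannot be told apart.

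Markers of other antigen-presenting and blood cells differed from gene to gene. Among dendritic cell markers, Itgax (CD11c) rose with differentiation by 7.64 ± 0.48 (limma adjusted p = 0.00018), from -3.95 and -3.97 to 3.66 and 3.70, and read 3.35 and 3.53 with cabozantinib. Cd209a and Xcr1 were not well above background on any array, the other 5 genes tested did not pass with differentiation, and Clec9a was well above background on neither cabozantinib array, where its call as lower than in undifferentiated osteoblasts was lost with quantile normalization, normexp and the authors' values. The list summed to 0.64 and 0.45 in undifferentiated, 13.1 and 13.5 in differentiated and 10.5 and 11.8 in cabozantinib-treated osteoblasts, nearly all of it Itgax in both groups kept in differentiation medium. In the B cell list the Cd22 probe was the brightest, and Cd22 rose with differentiation by 3.12 ± 0.72 (limma adjusted p = 0.024), a call lost with quantile normalization and the authors' values, while Ms4a1 (CD20) and Cd79b were not well above background on any array. Cd79a, of the B cell receptor, was likewise well above background on neither cabozantinib array, and its call as lower there was lost in the same 3 settings. Cd3d and Cd3g of the T cell list were likewise not well above background, and 0 of the 3 T cell genes tested passed in any comparison, with the Cd4 probe the brightest.

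Osteoclast markers summed to 51.5 and 31.2 in undifferentiated, 121 and 172 in differentiated and 108 and 129 in cabozantinib-treated osteoblasts, with the Ctsk probe the brightest. Of the 8 markers 7 were tested, and with differentiation 6 lay higher and 1 lower. Of these, 3 passed as higher, beside 10.3% of all named genes. Atp6v0d2, a proton pump subunit, rose with differentiation by 5.27 ± 0.49, Acp5 (TRAP) by 3.34 ± 0.56 and Dcstamp, needed for fusion, by 2.30 ± 0.55, while Calcr, the calcitonin receptor, was not well above background on any array. In cabozantinib-treated against undifferentiated osteoblasts 4 of the 7 lay higher and 3 lower. There 3 passed as higher, beside 12.4% of all named genes. Without the replicate block 2 passed as lower there, beside 24.4% of all probes. Of 5 endothelial markers 3 were tested, the Kdr (VEGFR2) probe was the brightest, Tek was not well above background on any array, and Cdh5 rose with differentiation by 2.17 ± 0.50 (limma adjusted p = 0.025), a call lost with normexp and the authors' values. Between cabozantinib-treated and control differentiated osteoblasts, all 6 dendritic cell, 4 B cell, 3 T cell and 7 osteoclast markers tested lay lower, with medians of -0.93, -1.50, -0.996 and -0.58, and none passed. Of all probes 67.9% lay lower, and their median was -0.29. With quantile normalization 4 of the 6 dendritic cell markers lay lower, and the other 3 lists kept their counts. The medians were then -0.28, -0.99, -0.35 and -0.44. With normexp 2 of the 3 T cell and 6 of the 7 osteoclast markers lay lower, as did all dendritic cell and B cell markers. In that comparison 0 of the 97 genes tested over the 12 lists beside the class II genes passed in limma, and 14 had an unadjusted p under 0.05, beside 23.3% of all probes. Without the replicate block 7 of these genes passed there, beside 12.4% of all probes, 1 higher and 6 lower, with Ibsp as the higher one and Cdh5 and Mmp9 among the lower. Of the list genes called against undifferentiated osteoblasts, 19 of 29 in differentiated and 17 of 31 in cabozantinib-treated osteoblasts kept the call with quantile normalization, normexp, the authors' values and no replicate block alike. The 10 that lost it in at least 1 of these 4 settings in the first comparison were H2-K1, Cd274, Spp1, Cd22, Cdh5, Dcstamp, Dmp1, Fcgr1, Icosl and Irf4. The 14 in the second were Fcgr1, Dcstamp, Icosl, Rfxank, Cd79a, Clec9a, Spp1, Sp7, C1qb, Ctsh, Cd86, Dmp1, H2-M3 and Irf4. The 29 hold Irf4, and the 31 hold Irf4, Cd79a and Clec9a. Each of these was well above background on neither array of a group compared, so these calls are not used as tests.

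**Figure D4:**
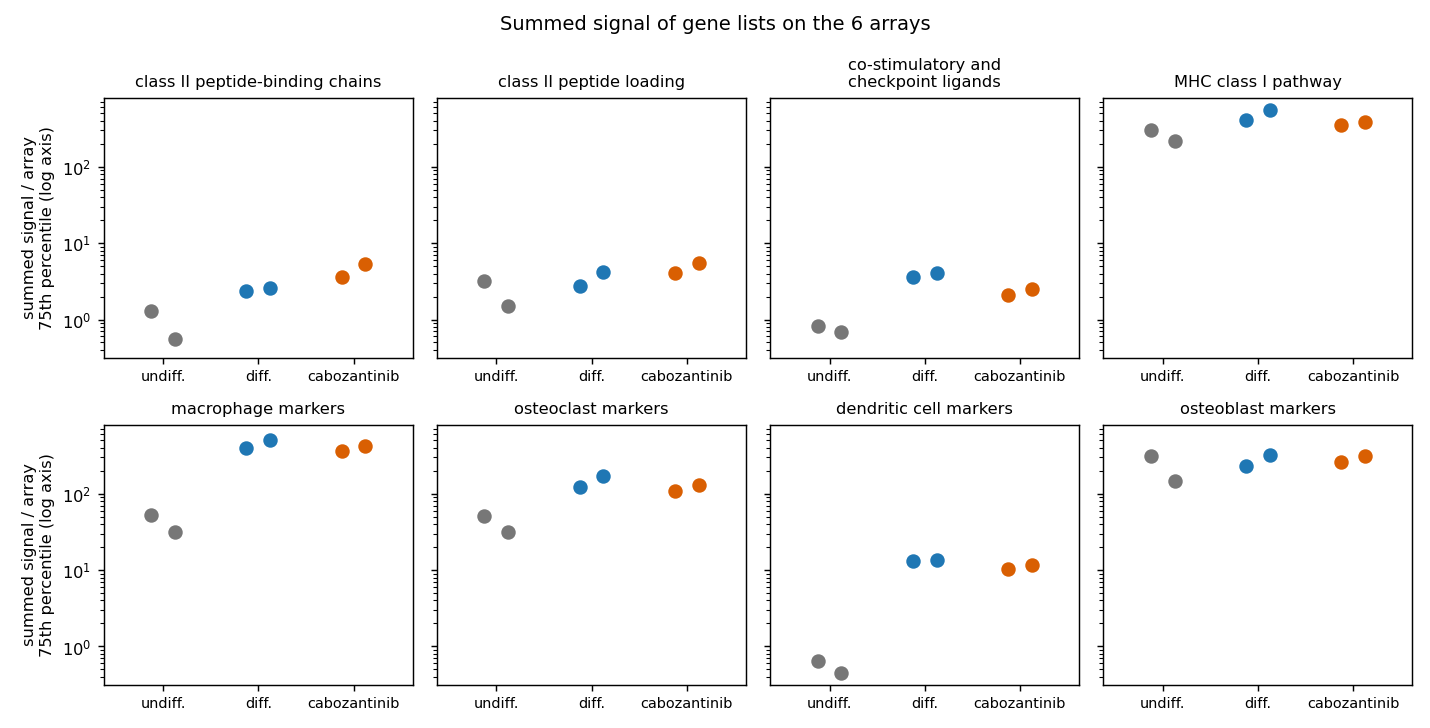
Summed signal of gene lists as a multiple of the 75th percentile of each array (vertical log axis), with 1 point per array. The class II peptide-binding chains, mostly H2-Ab1 signal, read 3.58 and 5.38 on the cabozantinib arrays. The sums of macrophage, osteoclast and dendritic cell markers are high in both groups kept in differentiation medium, and bright probes weigh most in a sum.

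The profile of the class II genes over the arrays was taken as the mean log2 level of H2-Aa, H2-Ab1, H2-Eb1 and Cd74, each at its brightest probe. It read -2.48 and -3.37 in undifferentiated, -2.55 and -2.52 in differentiated and -2.21 and -1.81 in cabozantinib-treated osteoblasts. The gene with the most similar pattern over the 6 arrays was Abtb1, with a Pearson r of 0.996. Abtb1 read 1.17 and 0.53, then 1.06 and 1.09, then 1.27 and 1.52, low on undifferentiated replicate 2 as the profile is. H2-Aa, well above background on 1 array, had a Pearson r of -0.47 with this mean. Without it, a choice made after seeing the data, the profile read -1.59 and -2.48, then -1.09 and -1.13, then -0.44 and -0.05, and 0 of the 10 nearest genes were shared with the 10 nearest to the first profile. The lists are therefore not given. With 15135 and 12114 candidate genes, 171 and 244 had an r over 0.9 with the first and the second profile.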

How the data were processed

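Gene expression was measured on single-color Agilent Whole Mouse Genome arrays, 2 per condition. The deposited scanner intensities were background-subtracted and detrended within each array by Feature Extraction 11.0.1.1, per the file headers, in arbitrary linear units. The authors also deposited log2 values made comparable between arrays by steps that are not stated, which served as an alternative.

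Probes were named through RefSeq accessions (69.1% of 39429 probes). After removal of control and outlier spots, replicate spots were averaged and log2 intensities were expressed relative to the 75th percentile of their own array. Probes that exceeded background on 2 or more of 6 arrays were fitted with limma 3.58.1 in R 4.3.3, with condition and replicate number as terms, since the statistics of the study name a paired test. The fit had 2 residual and 7.456 prior degrees of freedom. P values were adjusted by Benjamini-Hochberg over 27229 probes, with 0.05 as threshold. A gene of a list was taken at its brightest probe. Genes named are all members, list genes past the threshold, the brightest and defining markers, and the gene most like the class II profile. Members and lists were chosen with earlier results of these data known. Functions were tested on simulated data. Python 3.11.15, pandas 2.3.3, the R package data.table (1.17.8) and matplotlib 3.10.9 were used. The alternatives were quantile normalization, normexp (offset 50, on median signals, since mean signals were not used here), the deposited log2 values, other filters on dim probes, no replicate block, only the arrays compared, trend and robust settings, the methods' paired t-test, the mean of a gene's probes, each array left out, exchanged undifferentiated numbers and a class II profile without H2-Aa, the last 2 chosen after seeing the data.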

Additional observations from a re-analysis of the deposited data

How the results depend on the processing

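With 2 arrays per group the count of calls depended on the settings. The member counts include, where it was fitted, the dim H2-Ob probe A_55_P2082929. Its comparisons with undifferentiated osteoblasts are not used as tests. In differentiated against undifferentiated osteoblasts, the 1 member call was this dim H2-Ob probe. The count became 0 with normexp, with the authors' own values, without a filter on dim probes and with only the arrays compared. It was also 0 by the methods' paired t-test and when a gene's probes were averaged. With probes well above background on all 6 arrays, which leaves this probe out, it was 0 too, and with a variance trend 2. All probes called went from 2638 to 948 with normexp, 1747 with the authors' values, 1656 with no filter and 0 by the methods' paired t-test. Between cabozantinib-treated and control differentiated osteoblasts, the member count of 0 became 1 with no replicate block and 3 with only the arrays compared. All probes called there went from 1 to 3378 with no replicate block, 6837 with only the arrays compared, 653 with a variance trend, 1049 when a gene's probes were averaged, 2 with probes well above background on all 6 arrays, and 0 with quantile normalization, the authors' values, no filter or the methods' paired t-test. Against undifferentiated osteoblasts, the 4 member calls with cabozantinib, that probe included, became 2 with quantile normalization, normexp or averaged probes, 1 with the authors' values, the dim H2-Ob probe, and 0 with no filter or the methods' paired t-test. All probes called there went from 3672 to 1521 with quantile normalization, 614 with normexp, 1171 with the authors' values, 1311 with no filter, 1513 with probes well above background on all 6 arrays, 0 by the methods' paired t-test and 6656 with no replicate block. Leaving out 1 array gave 0 to 4, 0 to 3 and 0 to 5 member calls in the 3 comparisons, and 1746 to 5629, 49 to 6837 and 784 to 10506 calls over all probes. The 4 came without undifferentiated replicate 1 and the last 0 without cabozantinib replicate 2. The cause of these differences was not tested.

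Same-numbered arrays deviated together between differentiated and cabozantinib-treated osteoblasts (r = 0.26 over probes) but opposite to the undifferentiated ones (r = -0.51 and -0.53), which does not bear out the pairing that the replicate block assumes, and the block was kept because the statistics of the study name a paired test. With the undifferentiated numbers exchanged, a pairing added after seeing the data, the replicate block gave 4, 3 and 8 member calls and 7242, 8303 and 12261 calls over all probes. The 4 and the 8 include the dim H2-Ob probe A_55_P2082929, which is not used as a test there.

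Of 429 single-probe values under these settings, 355 kept direction and side of the threshold, 33 lost the call, 29 gained it and 12 reversed. Those that reversed were small or dim. Between cabozantinib-treated and control differentiated osteoblasts, H2-Oa was 0.57 with quantile normalization and with the authors' values, and from -0.67 to 0.15 with 1 array left out. There the H2-Ob probe A_55_P2082929 was 0.78 with quantile normalization and with the authors' values and -0.64 to 0.51 with 1 array left out, and H2-DMb1 was -0.022 to 1.09. With normexp A_55_P2082929 was -0.11 in cabozantinib-treated against undifferentiated osteoblasts. In differentiated against undifferentiated osteoblasts, leaving out 1 array gave -0.75 to 0.32 for the H2-Ob probe A_66_P130916 and -0.25 to 1.51 for H2-DMb1.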
